A study of Capra hircus with 3 samples.

Results

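S100 proteins and antimicrobial peptides were measured in goat skin under a short and a natural photoperiod. Cathelicidins and lactoferrin are stored in the granules of neutrophils, the first leukocytes to reach a wound or infection, and are released to kill microbes. SLPI, the secretory leukocyte protease inhibitor, is made by surface epithelia and glands, blocks neutrophil elastase and is itself antimicrobial. S100 proteins are small calcium-binding proteins, of which several are typical of keratinocytes and others of neutrophils. Members were the probes whose gene name or description on the array holds the name of an S100 protein, defensin, cathelicidin, lactoferrin or SLPI. The rule took in 7 of the 14363 identifiers on the array, with 9 of the 15008 probes and 13 of the 15208 spots. The label fits the content only in part, because 1 S100 protein and 0 defensins were found by name, while the other named members were cathelicidins, lactoferrin and SLPI. Further S100 proteins and defensins were not analysed here.

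The samples were skin of 6 female adult Arbas Cashmere goats, 2 years old by the paper's account. The 3 goats of the short photoperiod group grazed outdoors from morning to mid-afternoon and spent the other hours in a dark shed at about 0.1 lux, 1 degree colder than outside. As controls, the other 3 goats were left to graze in natural conditions. Each of 3 Agilent sheep arrays held the RNA of 1 goat of each group, born to the same parent, with the short photoperiod sample always in Cy5 and the control always in Cy3. A dye bias of a probe and an effect of the photoperiod therefore cannot be told apart, nor can the light from the shed. Ratios are log2 of short over natural photoperiod after loess within each array, so that values above 0 are higher in the short photoperiod goat. With 3 arrays the precision is limited throughout.

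All 9 member probes gave signal well above background in Cy5 and in Cy3 on each of the 3 arrays. For CATHL3, a cathelicidin of the proline-rich Bac7.5 type, the mean spot signal was 6.02 to 10.9 times its local background. It was 14.4 to 71.5 times the background for the CATHL1B probes and 17.3 to 47.4 times for SC5. Lactoferrin lay between 248 and 2721 times its background, SLPI between 322 and 1004 times, and S100-A14 between 867 and 2367 times. The ratios of the named members thus rest on measured signal in both groups.

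No member passed limma's test after adjustment over the array. The number of member probes with an adjusted p under 0.05 was 0 of 9, beside 0.00668% of the 14977 probes tested. An unadjusted p under 0.05 was found for 2 of the 9 members, SC5 and S100-A14, and for 18.5% of all tested probes. By the study's fold rule, 0 members were at least 2-fold higher in their mean, where 0.427% of all probes were, and 1 member, lactoferrin, was at least 2-fold lower, where 0.414% were. SC5 and S100-A14 were higher on all 3 arrays, which 21.6% of the probes with a value on every array were, and 0 members were lower on all 3, beside 22% of the probes.

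The neutrophil members were 5 probes of 4 genes, CATHL1B, CATHL3, SC5 and lactoferrin. Their median log2 ratio was 0.38, and it was -0.98, 0.54 and 0.65 on replicates 1, 2 and 3. The epithelial members were 3 probes of 2 genes, SLPI and S100-A14, with a median of -0.40 and with -1.38, 0.76 and -0.59 on the respective arrays. Each of these medians was the value of an SLPI probe, because SLPI has 2 of the 3 probes. The mean of S100-A14 was 0.38. Over all probes measured on every array the median was -0.01. The classes had medians of opposite sign, but that of the epithelial class rests on SLPI being counted with 2 probes. CATHL1B likewise has 2 of the 5 neutrophil probes. One of its probes gave the neutrophil median of 0.38 and the medians on replicates 1 and 3. Within each class the arrays also differed in sign, and each class held genes in both directions. With 1 array left out, the neutrophil median lay between -0.16, without replicate 2, and 0.61, without replicate 1, and the epithelial median between -0.996, without replicate 2, and 0.09, without replicate 1. Under median centring in place of loess they were 0.23 and -0.06. Read letter by letter, the table of classes leaves out CATHL1B and places S100-A14 among the S100 proteins of broad expression. The medians were then 0.25 for the neutrophil members, -0.41 for the epithelial members and 0.38 for the single broad S100 probe. Without this spelling, the class of broad S100 proteins had 0 members.

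**Figure D1:**
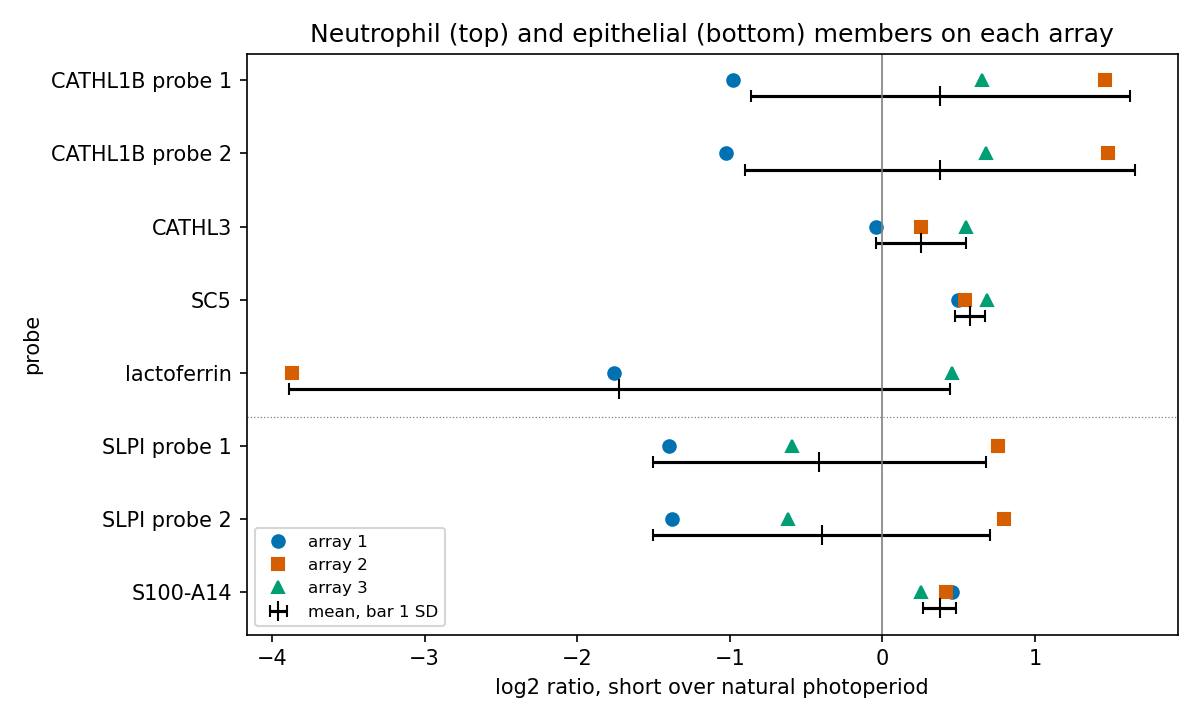
Log2 ratio of short over natural photoperiod (horizontal axis) of 8 member probes (vertical axis) on each of the 3 arrays, with the mean and a bar of 1 SD under the points. The points of SC5 and S100-A14 lie close together above 0, and those of lactoferrin spread from -3.87 to 0.46.

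Lactoferrin (LOC554321, NM_001024862), the iron-binding protein of neutrophil secondary granules and of glandular secretions, had the lowest mean ratio of the members. Its normalised log2 intensity was 15.01, 16.51 and 14.44 in the goats of the natural photoperiod on replicates 1, 2 and 3, and 13.25, 12.64 and 14.89 in their partners under the short photoperiod. The groups overlapped, because the short photoperiod goat of replicate 3 was above its own partner. The log2 ratios were -1.76, -3.87 and 0.46, with a mean of -1.73 ± 2.17 (SD, n = 3), and limma's adjusted p was 0.326. The 95% confidence interval of the mean reached from -3.79 to 0.34. Replicate 2 decided the size, since the mean was -0.65 without it. The natural photoperiod goat of replicate 2 had the highest level of the 6 goats and its partner the lowest.

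Hemoglobin beta (HBB), a marker of blood in the tissue, was lower on replicate 2 and higher on replicate 3 as well, but AHSP, the other blood marker measured, was not lower on replicate 2. The HBB probes had log2 ratios of 0.06, -2.11 and 1.15, and of 0.53, -1.96 and 0.96, on replicates 1, 2 and 3. The probes of AHSP, a chaperone of hemoglobin alpha in red cell precursors, had -0.44, 0.02 and 0.07, and -0.42, 0.05 and 0.22, so that they were below 0 on replicate 1, as lactoferrin was. The summed intensity of the 4 blood marker probes was 9076, 21990 and 4831 in the natural photoperiod goats and 9441, 6980 and 7190 in the short photoperiod goats. On replicate 1 lactoferrin was lower and the HBB probes were not. The part of blood in the lactoferrin ratios was not tested.

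SC5 (NM_001009406), a cathelin-related precursor of an antimicrobial peptide, was the most even of the neutrophil members. Its log2 intensity was 9.46, 9.98 and 9.28 under the natural photoperiod and 9.96, 10.52 and 9.96 under the short photoperiod. Every goat of the short photoperiod was above its partner, although the groups overlapped slightly across arrays. The log2 ratios of 0.49, 0.54 and 0.69 gave a mean of 0.57 ± 0.10 (SD, n = 3), or 1.49-fold, and a confidence interval from 0.31 to 0.83. The adjusted p from limma was 0.155, so the difference exceeded the spread between arrays but did not pass over all probes. The probe was printed on 5 spots per array, and the spots lay between 0.34 and 0.70 on replicate 1, 0.46 and 0.70 on replicate 2, and 0.55 and 0.78 on replicate 3. All spots of the 3 arrays were thus above 0.

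CATHL1B (NM_001009772), the precursor of the cyclic dodecapeptide, differed between the arrays in sign. The first of its probes had a log2 intensity of 10.82, 9.58 and 9.44 under the natural photoperiod and 9.84, 11.04 and 10.09 under the short photoperiod. Replicate 1 was lower under the short photoperiod and the other arrays higher, with log2 ratios of -0.98, 1.46 and 0.65. The mean was 0.38 ± 1.24 (SD, n = 3), limma's adjusted p was 0.687, and the mean turned to -0.16 without replicate 2. The second probe gave -1.02, 1.48 and 0.68. The probes share 59 of their 60 bases and differed by at most 0.05 on any array, so the spread of CATHL1B lay between the arrays and not between the probes.

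CATHL3 (NM_001009301), the precursor of a proline-rich bactenecin, had a log2 intensity of 8.17, 8.36 and 7.47 under the natural photoperiod and 8.13, 8.61 and 8.02 under the short photoperiod. The groups overlapped. Its ratios of -0.04, 0.25 and 0.55 had a mean of 0.25 ± 0.29 (SD, n = 3), limma's adjusted p was 0.399, and the mean was -0.04 under median centring. With 1 array left out it lay between 0.10, without replicate 3, and 0.40, without replicate 1. The cathelicidins together, 4 probes of 3 genes, had mean ratios above 0 in the loess setting and medians of -0.51, 1.00 and 0.67 on replicates 1, 2 and 3. The mean of lactoferrin had the other sign, with CATHL3 turning under median centring and CATHL1B without replicate 2. On replicate 1, however, CATHL1B and CATHL3 were below 0 as lactoferrin was, and on replicate 3 lactoferrin was above 0 as they were. A difference between the cathelicidins and lactoferrin was not tested.

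SLPI (NM_001035225) also changed sign between the arrays. Its first probe had a log2 intensity of 14.77, 13.90 and 14.94 under the natural photoperiod and 13.37, 14.66 and 14.35 under the short photoperiod. The goat of the short photoperiod was below its partner on replicates 1 and 3 and above it on replicate 2. The log2 ratios of -1.40, 0.76 and -0.59 gave a mean of -0.41 ± 1.09 (SD, n = 3), and limma's adjusted p was 0.618. The second probe, which shares 59 bases with the first, gave -1.38, 0.80 and -0.62 and differed from it by at most 0.04 on any array. The direction rests on replicate 1, since without it the means were 0.08 and 0.09. Under median centring the means were -0.11 and -0.06. SLPI and CATHL1B were both lower on replicate 1 and higher on replicate 2, and had opposite signs on replicate 3.

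S100-A14 (TC75523, described on the array through the bovine protein) is an S100 protein of epithelial cells, and in the goat annotation ARS1.2 its gene lies between S100A16 and S100A13. Its log2 intensity was 15.40, 15.24 and 15.60 under the natural photoperiod and 15.85, 15.66 and 15.85 under the short photoperiod. It was the only member for which all 3 goats of the short photoperiod lay above all 3 of the natural photoperiod, which was so for 6.44% of the probes measured on every array. With 3 goats against 3, a two-sided exact test that ignores the pairing cannot give a p under 0.1. The log2 ratios of 0.46, 0.42 and 0.25 gave a mean of 0.38 ± 0.11 (SD, n = 3). Its confidence interval reached from 0.11 to 0.64, and limma's adjusted p was 0.198. Under median centring in place of loess the mean was 1.10 and limma's adjusted p 0.0303, the lowest of a range up to 0.681 over the alternatives. Median centring called 6.77% of all tested probes higher and 5.78% lower, and the fit of both channels 0.612% and 0.484%. The size of this ratio therefore depended on the normalisation.

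**Figure D2:**
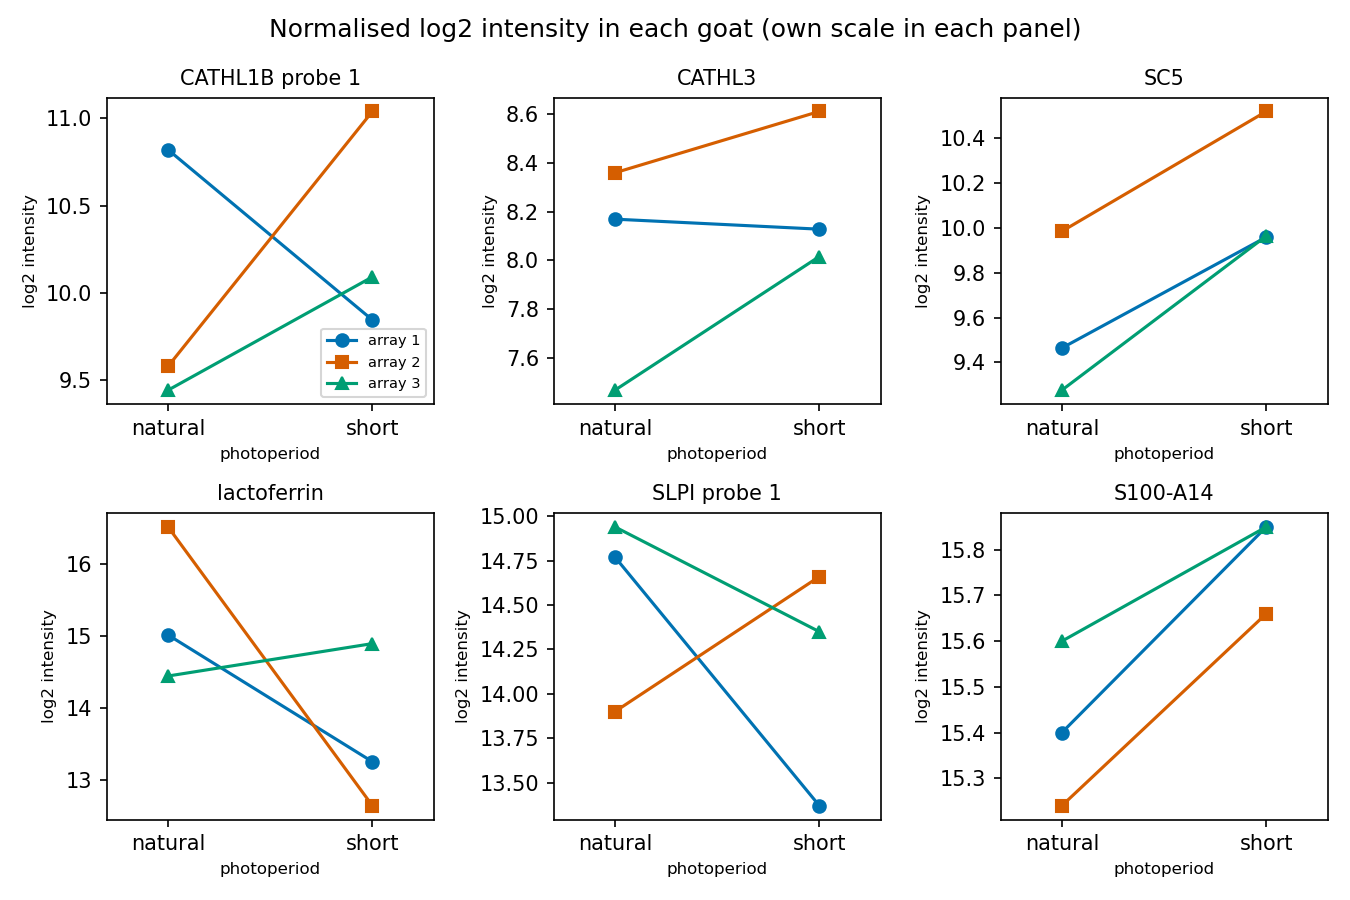
Normalised log2 intensity (vertical axis, own scale in each panel) of 6 member genes in the natural and short photoperiod goats (horizontal axis), with a line joining the goats of 1 array. The lines of SC5 and S100-A14 slope upward on all 3 arrays, and those of CATHL1B, CATHL3, SLPI and lactoferrin differ in direction between arrays.

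The remaining member, CF117923, is an expressed sequence tag taken in only because the letters of its clone name contain those of S100. Its log2 ratios were 0.04, -0.26 and -0.08, and it belongs to neither class.

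The positions of the probes in their transcripts were not analysed here. Those of the cathelicidin members hold the letters AATAAA, the signal for polyadenylation, and have a stop codon in every reading frame. The letters were searched as printed on the array and occur in 845 of its 15008 probes, or 5.63%. A stretch of 30 bases is shown for each gene, with AATAAA in capitals, because cathelicidin genes are alike in much of their sequence.
CATHL1B: ctggatctgaaaAATAAActcttgtgacat
CATHL3: tggacggtgaaaAATAAAttctggtgaaga
SC5: tggactctgagaAATAAAttcttgtgagaa
The longest run of identical bases between probes of different cathelicidin members was 12, between SC5 and CATHL3. It was 11 between CATHL3 and CATHL1B and 8 between SC5 and CATHL1B. Likeness of the probes beyond such unbroken runs was not analysed here. The arrays carry sheep sequence and were hybridised with goat RNA, and mismatches between them were not analysed here. The lactoferrin probe, shown because it had the lowest ratio, has 2 reading frames without a stop codon and shares at most 13 bases in a row with the probe of any other gene on the array.
lactoferrin: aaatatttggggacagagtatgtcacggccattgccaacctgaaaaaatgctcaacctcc

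A few related genes lay outside the rule and were picked after their values were seen. Elafin (TOM, NM_001035224), a protease inhibitor of the same family as SLPI that also blocks neutrophil elastase, had log2 ratios of -0.51, -0.64 and -0.59 with its first probe and -0.51, -0.74 and -0.79 with its second. All short photoperiod goats were below all natural photoperiod goats for both probes, which was so for 7.15% of the probes with a value on every array, and the adjusted p from limma was 0.155 for each. Under median centring the means were -0.52 and -0.56, with adjusted p-values of 0.0391 and 0.0383, and over all alternatives the adjusted p-values reached 0.600 and 0.509. SLPI, by contrast, was above 0 on replicate 2. The lysozyme 2a record LOC443321 had ratios of -0.89, -0.45 and -0.57 with limma's adjusted p at 0.162, and at 0.046 under median centring in a range up to 0.451. The cathelicidin BAC5 (NM_001009787) had means of 0.28 ± 0.09 and 0.13 ± 0.17 (SD, n = 3) with its probes, which became -0.11 and -0.28 under median centring. With Feature Extraction's ratio the first probe was 0.51. The second was 0.04 without replicate 3 and 0.21 without replicate 1. Signal of the BAC5 probes was 3.45 to 6.43 times their background.

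Other markers of neutrophils were matched by 5 of 36 symbols, with 10 probes. All 10 were lower on each of the 3 arrays, beside 22% of all probes measured on every array, with a median log2 ratio of -0.51, while CATHL1B and CATHL3 differed in sign between arrays, SC5 was above 0 on each, and lactoferrin, with a mean of -1.73, was below 0 on replicates 1 and 2. In limma's fit 0 of the 10 had an adjusted p under 0.05 and 10 had an unadjusted p under 0.05, beside 18.5% of all tested probes. Under median centring 6 of the 10 were called lower, beside 5.78% of all tested probes, and 2 had a mean above 0. The fit of both channels called 2 lower, beside 0.484%. Granule enzymes such as MPO and ELANE, which define neutrophils, were not analysed here, and the matched markers CYBB, CYBA, ITGAM, LYZ and MMP9 are shared with macrophages. CYBB, the catalytic subunit of the phagocyte oxidase, had means of -0.82, -0.64 and -0.60 with its 3 probes, and the lowest of them had ratios of -1.03, -0.70 and -0.73. Under median centring the CYBB probes had means of -0.70, -0.64 and -0.62, with adjusted p-values from limma of 0.0352, 0.0349 and 0.0368. The first and second were also called in the fit of both channels, at 0.0366 and 0.0375, and over all alternatives the adjusted p-values of the CYBB probes reached 0.404, 0.404 and 0.488. ITGAM had means of -0.36 and -0.41, which became -0.66 and -0.65 under median centring, where both probes were called at 0.0345, the lowest of ranges up to 0.871 and 0.729. CYBA had means of -0.39 and -0.53, and both probes turned to 0.23 under median centring. The summed intensity of the 10 probes was 206000, 196500 and 206800 under the natural photoperiod and 146800, 140100 and 138600 under the short photoperiod. Under median centring the sums were 177700, 163900 and 169400 against 172600, 168300 and 171500, so the difference in the sum depended on the normalisation. In skin as a whole, fewer cells of a type and less RNA per cell cannot be told apart, and the part of these cells in the ratios of the members was not tested.

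Macrophage markers were matched by 4 of 17 symbols, with 6 probes. All 6 were lower on every array, beside 22% of all probes, and 0 were called, with a median of -0.35. The lowest were FCGR1A, an Fc receptor, at -1.09 ± 0.76 (SD, n = 3), and the protease CTSS at -0.97 ± 0.52. CD14 had means of -0.33 and -0.37 and FCER1G of -0.31 and -0.34. Under median centring FCGR1A was -0.81, CTSS -0.24, and the FCER1G probes -0.05 and 0.03. Like S100-A14, and unlike SLPI with means of -0.41 and -0.40, the epidermis markers had the other sign. They were matched by 7 of 55 symbols, and FLG, LOR and IVL were not analysed here. Of their 9 tested probes 9 had a mean above 0 and 6 were higher on every array, beside 21.6% of all probes. Among the 9, 0 were called and the median was 0.81. Under median centring 3 were called higher, beside 6.77% of all tested probes, and in the fit of both channels 1, beside 0.612%. TP63, the transcription factor of basal keratinocytes, had means of 0.98 ± 0.51 and 0.91 ± 0.57, the CLDN4 probes had 0.12 and 0.13, and SPRR2A had 0.05 ± 1.12 with ratios of 0.35, -1.19 and 0.98. SPRR2A turned to -0.14 under median centring. The CLDN4 means were 0.00 and 0.03 without replicate 1, and 0.30 for each under median centring.

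Among other antimicrobial proteins 12 probes were tested and 0 called, with a median of 0.08. On every array 2 were higher and 3 lower, beside 21.6% and 22% of all probes, and 1 of the 3, a NOS2 probe at -0.02 on each array, was not well above background in either channel. Under median centring the median was -0.07 and 1 was called lower, beside 5.78% of all tested probes. LYZ, lysozyme, had means of -0.54 and -0.49, which were -0.06 and -0.16 under median centring. Without replicate 3 the second LYZ probe was -0.31. The 4 probes of GNLY, granulysin of cytotoxic lymphocytes, had means of 0.30 to 0.42. All 4 were below 0 on replicate 1, and with 1 array left out their means lay between 0.15 and 0.64. Partners and receptors of S100 proteins were matched by 4 probes, 0 called, with a median of 0.25, which was 0.54 under median centring. It was 0.13 with outlier spots kept, and 0.14 without replicate 2, over the 3 probes then tested. ANXA2, which binds S100A10, had a mean of 0.36 over 2 arrays, its spot on the other being left out for an outlier flag. It was 0.095 with the outlier spot kept, 0.21 in the authors' value table and 1.22 under median centring, where limma's adjusted p was 0.0345 in a range up to 0.803. TPM1 had 0.18, and 0.85 under median centring, with an adjusted p of 0.0349 from limma in a range up to 0.961. The TLR4 probes, for a receptor of S100A8 and S100A9, differed in sign at 0.31 and -0.17, and at 0.22 and -0.34 under median centring. Of the genes that induce or process antimicrobial peptides, 42 probes were tested, 0 were called and the median was -0.19, and -0.34 under median centring, with 12 lower and 6 higher on every array, beside 22% and 21.6% of all probes. The lowest were probes of FOS, at -0.74 and -0.62 beside -0.61 for its other probe. Without replicate 3 these means were -0.47, -0.36 and -0.35, and on replicate 2 the ratios were -0.11, 0.00 and 0.03. The highest were TLR1 at 0.47 and the adaptor MYD88 at 0.42. TLR1 lay between 0.30 and 0.70 with 1 array left out and was 0.07 under median centring, where 5 probes of the list were called lower and 1 higher, beside 5.78% and 6.77% of all tested probes.

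In the lists of the other tissues of skin 0 probes were called as well. Under median centring all 5 probes of hair shaft and inner root sheath and the skeletal muscle probe were called higher, and 1 adipose probe lower, where 6.77% of all tested probes were called higher and 5.78% lower. The median was -0.14 for the 4 blood probes, 0.48 for the 1 skeletal muscle probe, -0.41 for the 7 adipose probes and 1.16 for the 5 probes of hair shaft and inner root sheath. The blood median turned to 0.25 without replicate 2 and was -0.46 without replicate 3, and without replicate 3 the adipose median was -0.14 and that of hair shaft and inner root sheath 0.52. The muscle value was 0.32 without replicate 1. Under median centring the blood median was -0.22 and that of hair shaft and inner root sheath 1.81.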

How the data were processed

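The authors read the scanned images of 3 two-colour arrays with Feature Extraction 10.7.3.1. The deposited files hold mean spot and median background intensity in Cy5 and Cy3, not normalised. The deposited log10 ratio of Feature Extraction and the authors' log2 value table served as alternatives. The table's medians were 0.0082, 0.0012 and 0.0179, and its correlation with the ratios used here was 0.868 to 0.904. The paper names Lowess as its normalisation. Where Feature Extraction's ratio was kept, 14478 to 14691 probes per array, the table differed from it by 0.01 or more for only 5 to 7 probes, so these alternatives are not independent.

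In R 4.3.3 with limma 3.58.1, all spots were corrected by normexp (offset 50), controls were dropped, and each array was normalised by loess with outlier spots at weight 0. Outlier spots were then removed and the spots of a probe averaged. The 14977 probes with at least 2 arrays were tested with lmFit and eBayes against 0, with Benjamini-Hochberg adjustment over all of them and a threshold of 0.05. The study's fold rule is 2 or 0.5. Levels in each goat are channel intensities after Aquantile normalisation. The array pairs the goats, as the paper describes. The deviations of partners from their group means correlated at 0.463 to 0.593. Partners were read from the same spots of 1 array, so this correlation cannot show whether the goats themselves were alike. The arrays shared 1 slide and 1 scan.

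Members and lists were chosen with earlier results of these data known. Every member was named, with up to 2 of the highest and 2 of the lowest measured probes of 6 other lists. The blood, muscle, adipose and hair lists are given by their median. HBB, AHSP, the sums under median centring, the further probes of named genes and the related genes outside the rule were added after their values were seen. The table that sorts members into neutrophil, epithelial and broad S100 classes missed the spellings CATHL1B and S100-A14. Both were put, after the values were seen, into the class that the table gives their family or name, and the medians are given both ways. Alternatives were no background correction, no offset, Feature Extraction's ratio, median centring, outlier spots kept, only probes well above background, the value table, eBayes with trend and robust, separate channels, unpaired channels and leaving out each array.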

Additional observations from a re-analysis of the deposited data

How the results depend on the processing

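The count of member probes with an adjusted p under 0.05 was 0 in every alternative except median centring, where it was 1, S100-A14. With the channels taken as unpaired samples, without the pairing, it was 0 as well. Over the whole array median centring called 1880 probes, 1014 higher and 866 lower, against 0 higher and 1 lower with loess, and the authors' value table called 14, of which 11 were higher. Feature Extraction's ratio, which the table repeats for nearly all probes, called 5, a fit of both channels with their within-spot correlation 163, and the unpaired channels and each fit with 1 array left out 0. Members at least 2-fold higher numbered 1 under median centring and 0 to 2 with 1 array left out, and members at least 2-fold lower numbered 0 to 1 with 1 array left out. These counts follow the arrays used, and the cause of the difference under median centring was not tested.

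With 1 array left out, the mean of the SLPI probes ranged from -0.998 to 0.082 and from -0.996 to 0.091, that of the CATHL1B probes from -0.16 to 1.06 and from -0.17 to 1.08, that of SPRR2A from -0.42 to 0.67, that of the HBB probes from -1.03 to 0.60 and from -0.71 to 0.74, and that of the AHSP probes from -0.21 to 0.045 and from -0.18 to 0.13. Under median centring CATHL3 was -0.044, the BAC5 probes were -0.11 and -0.28, both CYBA probes were 0.23, 1 FCER1G probe was 0.028 and SPRR2A was -0.14, with signs opposite to loess. The epithelial median shrank to -0.064, CTSS to -0.24 and LYZ to -0.058 and -0.16. Lactoferrin stayed below 0, between -2.82 and -0.65, SC5 above 0, between 0.43 and 0.65, and S100-A14 above 0, between 0.34 and 1.10, over the 13 alternatives. Of the comparisons of member probes with an alternative, 111 kept direction and side of the threshold, 5 changed sign and 1 passed the threshold. Of those of the probes of genes named from the other lists, 458 kept both, 10 changed sign and 9 passed the threshold, and of those of the related genes 60, 2 and 3. The related genes outside the rule, the letter-by-letter classes and the further probes of named genes were added after seeing the data. So were the list medians under each alternative, the list sums under median centring and the omission of CF117923. That omission left the counts of members called, at least 2-fold higher and at least 2-fold lower as they were. For CATHL3 the signal was 6.02 to 10.9 times background, and whether this limits the precision of the ratio was not tested.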
